A study of Mus musculus with 12 samples.

Results

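Purinergic signalling genes were followed in bone marrow-derived macrophages (BMDMs) of the mouse, grown in culture. They were 10 listed genes of the 48526 in the count table, namely the receptor genes P2rx4, P2rx7, P2ry6, P2ry12, P2ry13, P2ry14, Adora2a, Adora2b and Adora3 and the ectonucleotidase gene Entpd1. They were chosen by symbol and mapped to the table through their Ensembl identifiers, and all 10 had enough counts to be tested. RNA came from wild-type (WT) mice and from homozygous HSS9 knockout (KO) mice, in which an enhancer region upstream of Tnf, called TNF-9 in the study, is deleted. Cells were treated for 6 hr with PBS (untreated, UT) or with LPS, a lipopolysaccharide of bacterial walls to which macrophages respond, and each of the 4 combinations of genotype and treatment had 3 libraries. The study's methods give male C57BL/6 mice of 7 to 10 weeks, and all groups share 6 d of culture in L929-conditioned medium. The deletion is in the germline, so every cell of the mouse carries it and not only macrophages. The labels call the WT mice littermates whereas the methods describe purchased mice, so a difference in background and the deletion cannot be told apart. The labels give each library a batch number that equals its replicate number but do not say whether replicates were separate animals or cultures, so p-values measure only the spread between these libraries.

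Extracellular nucleotides and adenosine signal between cells through families of surface receptors. P2X receptors are ion channels opened by ATP, and P2Y receptors are G protein-coupled receptors for ATP, ADP, UTP, UDP or UDP-sugars. ATP leaving stressed cells is cut to ADP and AMP by ectonucleotidases such as CD39, the product of Entpd1, and CD73 turns AMP into adenosine, which acts on its own receptors. In macrophages ATP is known as a danger signal that triggers the inflammasome through P2rx7, while adenosine receptors coupled to cAMP synthesis are known to restrain cytokine release.

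Library totals ranged from 26154533 to 36423921 counts. Calls required an adjusted p under 0.05 in edgeR together with a log2 fold change of more than 1 in either direction. Levels are CPM, each count relative to its library's total corrected by TMM, and coordinates are those of GRCm38. Tnf, the readout of the deletion, was lower in KO than in WT both in UT cells (log2 fold change -0.66, edgeR adjusted p 1.29e-06) and after LPS (-1.04, edgeR adjusted p 2.76e-10). The 9 macrophage markers together stood between 27977 and 34557 CPM in every library, mostly through Lyz2. Adgre1 (2031 to 3169 CPM) and Csf1r (1879.6 to 2448 CPM) were also high in the group means, which matches the labelled cell type. The mast cell markers Mcpt4 and Tpsb2 and the neutrophil marker Ly6g had 0 counts throughout. A bulk library cannot tell fewer cells of a type from less RNA per cell.

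Several of the genes lie side by side. P2ry14 (ENSMUSG00000036381.13, chr3:59113855-59153618, minus strand), P2ry13 (ENSMUSG00000036362.2, chr3:59207892-59210882, minus strand) and P2ry12 (ENSMUSG00000036353.13, chr3:59216272-59262871, minus strand) form a cluster on chromosome 3, with gaps of 54.3 kb and 5.4 kb. P2rx7 (ENSMUSG00000029468.17, chr5:122643911-122691432, plus strand) ends 16.1 kb before P2rx4 (ENSMUSG00000029470.15, chr5:122707544-122729738, plus strand). The other genes are P2ry6 (ENSMUSG00000048779.5, chr7:100937630-100974649, minus strand), Adora2a (ENSMUSG00000020178.5, chr10:75316877-75334784, plus strand), Adora2b (ENSMUSG00000018500.2, chr11:62248984-62266453, plus strand), Adora3 (ENSMUSG00000000562.5, chr3:105870858-105908926, plus strand) and Entpd1 (ENSMUSG00000048120.16, chr19:40612366-40741602, plus strand). All 10 are annotated as protein coding.

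RefSeq promoter windows on GRCm38.p6 were found for 8 of the 10 genes, and not used here for P2ry6 and Adora2a. The 250 bases upstream of a RefSeq start are printed for the 3 clustered receptor genes, because they lie next to each other and P2ry14 among them had the largest KO difference, and for Adora2b, the gene with a window that rose most. They lie at chr3:59153493-59153742 (P2ry14), chr3:59210883-59211132 (P2ry13) and chr3:59262986-59263235 (P2ry12) on the minus strand and at chr11:62248734-62248983 (Adora2b) on the plus strand. They read 5′ to 3′, with a match to the AP-1 letters TGANTCA in capitals.
P2ry14: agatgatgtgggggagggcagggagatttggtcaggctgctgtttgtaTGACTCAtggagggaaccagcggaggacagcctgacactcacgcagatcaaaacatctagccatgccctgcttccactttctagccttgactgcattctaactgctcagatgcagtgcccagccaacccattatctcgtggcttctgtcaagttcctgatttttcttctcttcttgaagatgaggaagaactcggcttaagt
P2ry13: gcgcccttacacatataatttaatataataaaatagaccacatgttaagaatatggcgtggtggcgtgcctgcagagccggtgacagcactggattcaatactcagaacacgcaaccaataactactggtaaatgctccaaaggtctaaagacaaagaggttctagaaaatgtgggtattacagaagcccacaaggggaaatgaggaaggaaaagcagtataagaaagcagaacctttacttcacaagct
P2ry12: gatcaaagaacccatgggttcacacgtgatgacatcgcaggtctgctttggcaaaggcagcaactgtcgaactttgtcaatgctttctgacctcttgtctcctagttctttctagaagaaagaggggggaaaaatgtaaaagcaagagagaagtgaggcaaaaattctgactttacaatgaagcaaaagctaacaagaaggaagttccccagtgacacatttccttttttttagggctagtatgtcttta
Adora2b: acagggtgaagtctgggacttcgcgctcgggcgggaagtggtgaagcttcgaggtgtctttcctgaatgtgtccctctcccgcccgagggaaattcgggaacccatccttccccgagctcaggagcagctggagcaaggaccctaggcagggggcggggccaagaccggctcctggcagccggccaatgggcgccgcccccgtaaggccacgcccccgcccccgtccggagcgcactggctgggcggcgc
Motifs were searched on both strands of windows of 300 bases that run 50 bases past the start. The window nearest to the annotated start held the AP-1 letters in 3 of the 8 genes (P2rx7, P2ry14 and Adora3), against 7.81% of all 32851 windows. PU.1 (GAGGAAGT, 3.2% of windows) was found for Adora3, whose window starts far inside the annotated gene. CRE (TGACGTCA, 1.79%), ISRE (3.44%) and NF-kappaB (4.51%) had no match in these 8 windows. Further RefSeq starts were not counted: that of P2rx7 held PU.1 but no AP-1 letters, and those of P2ry14 held AP-1 letters in some windows only. The upstream stretch of Adora2b was 69.6% G and C with 22 CG pairs, whereas P2ry12 and P2ry13 were at 41.6% with 3 and 5 pairs, against medians of 52.4% and 6 over all windows. These matches describe letters only.

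The first comparison asked how the genes responded to LPS in each genotype. In both genotypes the adenosine receptor genes Adora2a, Adora2b and Adora3 and the ADP receptor gene P2ry13 rose, while P2rx7 and Entpd1 fell. Adora2a rose most, 108-fold in WT and 88.3-fold in KO, followed by Adora2b at 28.4-fold and 24.3-fold. Entpd1 fell to 0.185 of its UT level in WT and to 0.212 in KO. In WT 7 of the 10 genes were called (5 higher, 2 lower), against 37.8% of the 15523 genes tested (19.1% higher, 18.7% lower). In KO 6 were called (4 higher, 2 lower), against 37.0% (17.7% higher, 19.3% lower). P2ry14 made the difference in count. At any fold, 9 of 10 passed the adjusted p in each genotype (73.3% of all genes in WT, 72.8% in KO). The median log2 fold change of the 10 genes was 0.71 in WT and 0.69 in KO, and 0.05 and -0.06 over all genes. For all 10 genes the LPS libraries did not overlap the UT libraries in either genotype, as for 74.8% and 76.0% of all genes. Marker sums of other cells moved with LPS too. From UT to LPS in WT the neutrophil list went from 18.6 to 19.9 CPM up to 50.4 to 79.4 CPM, with 2 of 5 tested markers called higher and 1 lower. The platelet list reached 53.9 to 76.9 CPM from 23.8 to 27.2 (1 of 4 higher, 1 lower), the stromal list 21.9 to 24.1 from 4.82 to 5.32 (1 of 6 higher, 1 lower) and the endothelial list 95.8 to 121 from 34.9 to 38.1 (2 of 2 higher). In KO the LPS libraries were likewise above the UT libraries in all 4 sums. There 2 of 5 neutrophil markers were called higher and 3 lower, and 0 of 4 platelet markers were called. Higher were 3 of 6 stromal and 2 of 2 endothelial markers. In both genotypes the 4 sums rose mostly through S100a8, Pf4, Pdgfrb and Kdr respectively. The B cell, T cell and mast cell sums, all low, fell in both genotypes. The part of the markers in the LPS responses was not tested.

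**Figure D1:**
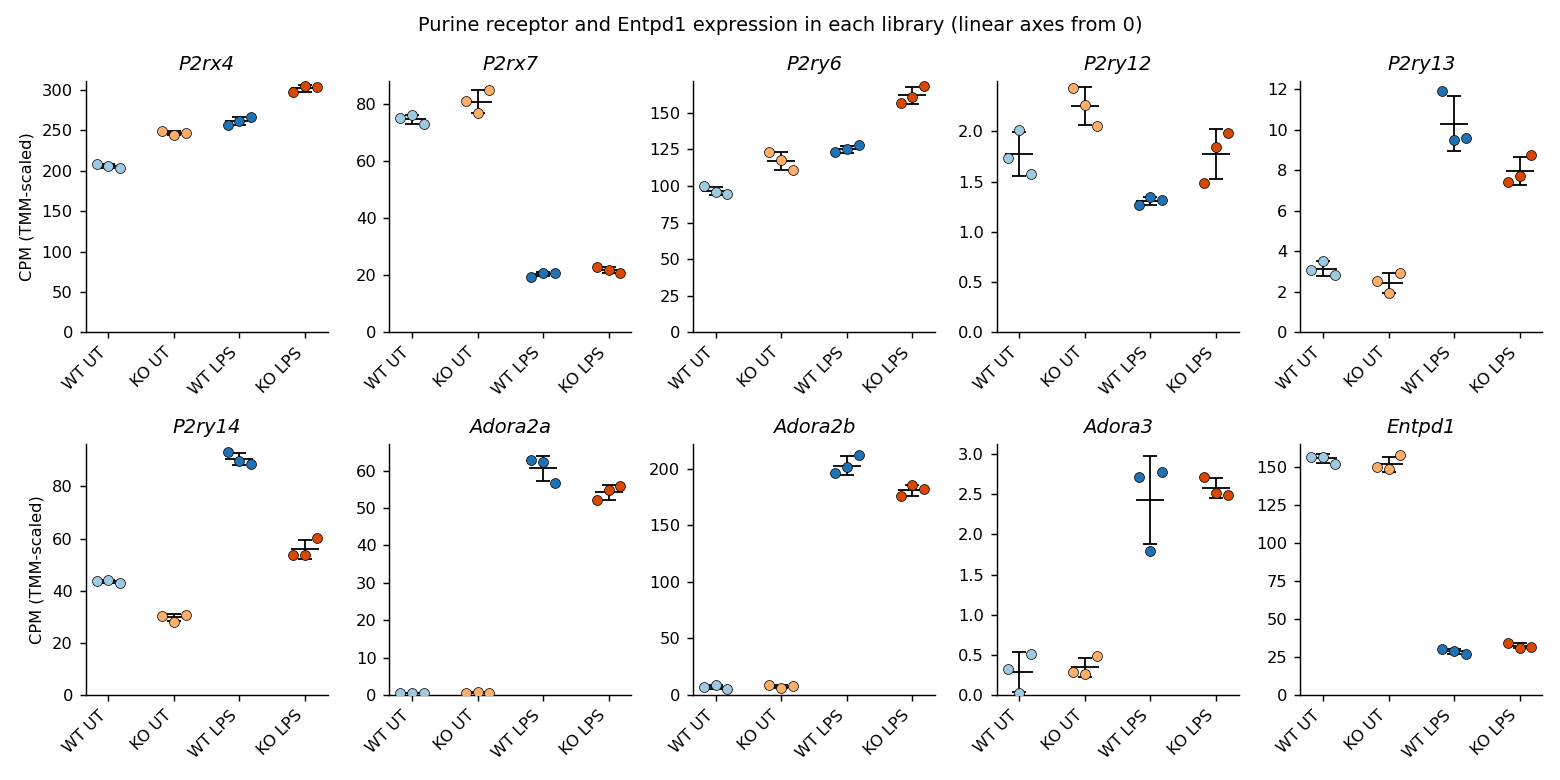
Level of each gene in CPM (TMM-scaled, vertical axes linear and starting at 0) in the 4 groups; points are libraries, and bars give the mean and SD of 3 libraries. Adora2a and Adora2b were close to 0 without LPS and high after it. Entpd1 and P2rx7 were lower after LPS but not close to 0, and the KO libraries of P2ry14 lay below the WT libraries in each treatment.

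Of the ATP-gated channels, P2rx7, known for opening the way to inflammasome activation, was at 75.2, 76.1 and 73.0 CPM in WT UT and 19.5, 20.9 and 20.7 CPM in WT LPS. In KO it was at 81.0, 76.8 and 84.7 CPM in UT and 22.7, 21.8 and 20.6 CPM after LPS. Every LPS library was far below every UT library. The log2 fold change was -1.88 (SE 0.0628, edgeR adjusted p 4.83e-17) in WT and -1.90 (SE 0.0619, edgeR adjusted p 3e-17) in KO. P2rx4, a channel found on lysosomes and at the cell surface, was at 208, 206 and 203 CPM in WT UT and 257, 262 and 267 CPM in WT LPS. KO cells had 249, 244 and 247 CPM in UT and 298, 305 and 304 CPM after LPS. The libraries of each group were tight, and the LPS libraries were the higher ones. Its log2 fold change was 0.35 (SE 0.0483, edgeR adjusted p 1.37e-06) in WT and 0.29 (SE 0.0482, edgeR adjusted p 1.42e-05) in KO, below the fold change minimum, and became -0.32 and -0.22 when library totals were used without scaling factors. The adjacent genes P2rx7 and P2rx4 thus differed in response, and P2rx7 fell under every scaling tried.

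Of the P2Y receptors, P2ry6, a receptor for UDP, was at 99.7, 95.8 and 94.5 CPM in WT UT and 123, 125 and 128 CPM in WT LPS. The KO libraries read 123, 118 and 111 CPM in UT and 157, 161 and 168 CPM after LPS. The LPS libraries were above the UT libraries in each genotype. Its change on the log2 scale was 0.37 (SE 0.0553, edgeR adjusted p 3.25e-06) in WT and 0.47 (SE 0.0550, edgeR adjusted p 1.11e-07) in KO, below the fold change minimum, and became -0.29 and -0.04 with library totals without scaling factors.

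The cluster on chromosome 3 was mixed. P2ry14, the receptor for UDP-glucose and related UDP-sugars, was at 43.7, 44.0 and 43.0 CPM in WT UT and 93.1, 89.8 and 88.7 CPM in WT LPS. In KO it was at 30.4, 28.1 and 30.8 CPM in UT and 53.5, 53.7 and 60.1 CPM after LPS. The KO LPS libraries stood above all UT libraries but below all WT LPS libraries. P2ry14 rose by 1.06 (SE 0.0591, edgeR adjusted p 4.99e-13) on the log2 scale in WT and by 0.91 (SE 0.0613, edgeR adjusted p 1.37e-11) in KO, on either side of the fold change minimum. It was not called in WT with upper-quartile scaling (0.87) or with library totals without scaling factors (0.39), though it passed the adjusted p in both.

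P2ry13, a receptor for ADP, was at 3.06, 3.53 and 2.81 CPM in WT UT and 11.9, 9.47 and 9.57 CPM in WT LPS. KO levels were 2.52, 1.94 and 2.91 CPM in UT and 7.44, 7.70 and 8.75 CPM after LPS. Each LPS library was above each UT library. The log2 fold change was 1.72 (SE 0.148, edgeR adjusted p 7.9e-10) in WT and 1.69 (SE 0.157, edgeR adjusted p 2.91e-09) in KO. P2ry12, the ADP receptor best known from platelets and microglia, was low, at 1.73, 2.01 and 1.57 CPM in WT UT and 1.27, 1.35 and 1.32 CPM in WT LPS. In KO it was at 2.43, 2.26 and 2.05 CPM in UT and 1.49, 1.84 and 1.98 CPM after LPS. Libraries did not overlap, but the difference did not pass the test, with log2 fold changes of -0.43 (95% interval -0.89 to 0.02, edgeR adjusted p 0.0809) and -0.34 (-0.77 to 0.09, edgeR adjusted p 0.145). With upper-quartile scaling P2ry12 passed the adjusted p in WT (-0.62, edgeR adjusted p 0.0149) and in KO (-0.52, edgeR adjusted p 0.0259), and with library totals without scaling factors it passed in KO (-0.85) and was called in WT (-1.10). All 3 genes lie within Med12l on the opposite strand, which had 19 to 63 counts in UT and 107 to 192 after LPS. Its annotated exons share 9 bases with P2ry12 and 0 with the others, and whether reads were counted by strand is not given in the sources used here.

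The adenosine receptor genes had the largest responses. Adora2a, a receptor that raises cAMP, was at 0.515, 0.618 and 0.532 CPM in WT UT, which was 22 to 28 counts, and at 62.8, 62.3 and 56.6 CPM in WT LPS. KO cells had 0.492, 0.764 and 0.582 CPM in UT and 52.1, 54.7 and 55.9 CPM after LPS. The UT libraries were low in both genotypes, and every LPS library was far above them. Its change on the log2 scale was 6.76 (SE 0.11, edgeR adjusted p 1.96e-22) in WT and 6.46 (SE 0.113, edgeR adjusted p 5.1e-22) in KO. Adora2b, a low-affinity adenosine receptor that also raises cAMP, was at 7.16, 8.94 and 5.40 CPM in WT UT and 196, 202 and 212 CPM in WT LPS. The KO libraries read 8.70, 6.02 and 7.59 CPM in UT and 176, 186 and 182 CPM after LPS. Its UT libraries were the more spread ones, and all LPS libraries were well above them. The fitted log2 change was 4.83 (SE 0.122, edgeR adjusted p 3.3e-19) in WT and 4.60 (SE 0.123, edgeR adjusted p 8.33e-19) in KO.

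Adora3, an adenosine receptor that lowers cAMP, had 14, 1 and 24 counts in WT UT and 73, 40 and 59 counts in WT LPS. In KO it had 10, 9 and 19 counts in UT and 71, 67 and 68 counts after LPS. It was the least certain of the genes that rose, since one WT UT library held a single count. The log2 fold change was 3.06 (SE 0.436, edgeR adjusted p 1.87e-06) in WT and 2.87 (SE 0.433, edgeR adjusted p 4.28e-06) in KO, and in WT it was 2.52 without WT UT replicate 2 and 3.80 without WT UT replicate 3. Adora3 shares 779 bases (20.9%) of its exons with Tmigd3 on the same strand, so its reads are uncertain. Tmigd3 had 8, 18 and 4 counts in WT UT, and its highest count fell in the library where Adora3 had 1.

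Entpd1, whose product CD39 removes extracellular ATP and ADP, was at 157, 157 and 152 CPM in WT UT and 30.2, 29.0 and 27.1 CPM in WT LPS. In KO it was at 150.4, 149 and 158 CPM in UT and 34.1, 31.2 and 31.8 CPM after LPS. The UT libraries of both genotypes formed one high group and the LPS libraries one low group. The fitted log2 change was -2.43 (SE 0.0606, edgeR adjusted p 2.43e-19) in WT and -2.24 (SE 0.0595, edgeR adjusted p 7.87e-19) in KO.

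**Figure D2:**
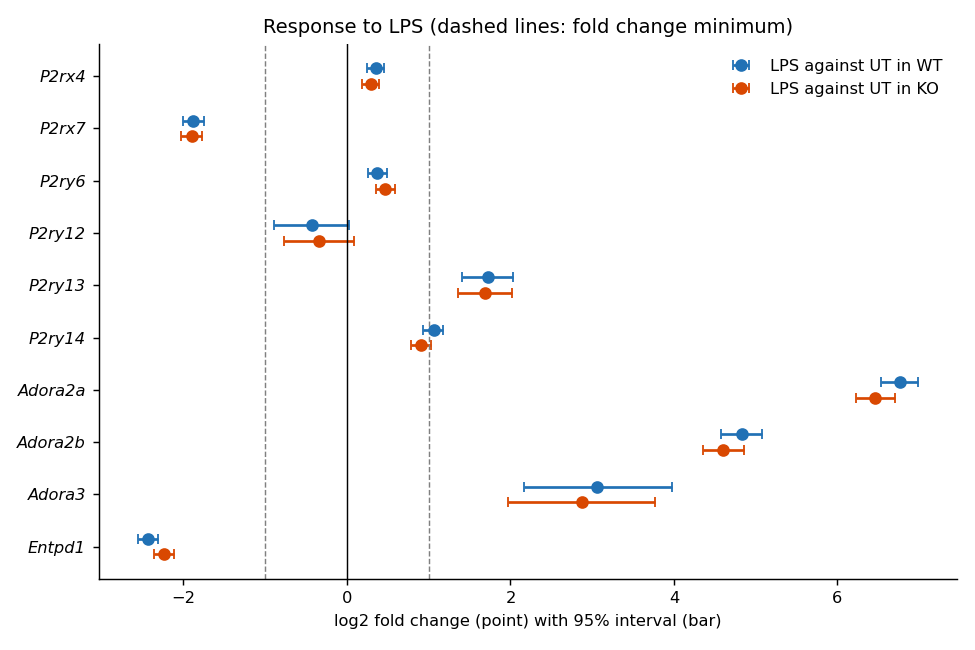
Log2 fold change of LPS against UT (horizontal axis) for each gene (vertical axis) in WT and KO; points are estimates, bars 95% intervals, and dashed lines the fold change minimum of 1 in either direction. The intervals in WT and KO overlapped for every gene, from Entpd1 at -2.43 and -2.24 to Adora2a at 6.76 and 6.46.

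Levels of different genes were compared per kilobase of exons. In WT UT the order was P2ry6 (33.5 CPM per kb), P2rx4 (29.3), Entpd1 (27.9), P2rx7 (12.5), P2ry14 (3.94), Adora2b (3.88), P2ry13 (1.24), P2ry12 (0.696), Adora2a (0.181) and Adora3 (0.0769). The libraries of P2ry14 and Adora2b overlapped, and those of all other neighbors in this order did not. In WT LPS the order was Adora2b (110.0 CPM per kb), P2ry6 (43.4), P2rx4 (37.3), Adora2a (19.8), P2ry14 (8.19), Entpd1 (5.15), P2ry13 (4.07), P2rx7 (3.41), Adora3 (0.652) and P2ry12 (0.515). Here only the libraries of Adora3 and P2ry12 overlapped. Adora2b thus went from sixth to first. In KO LPS, Entpd1 (5.80 CPM per kb) stood above P2ry14 (5.04), the reverse of WT LPS, but per kilobase of the longest coding transcript P2ry14 stood above Entpd1 in both (22.5 against 7.67 in KO LPS, 36.6 against 6.81 in WT LPS). The order depends on the gene model, because the annotated exons of P2ry14 cover 11059 bases and those of P2rx4 cover 7025, against 2476 and 2702 in the longest coding transcript. Per kilobase of that transcript, P2rx4 was first in WT UT at 76.3 CPM per kb and P2ry14 was at 17.6, above P2rx7 at 15.1. Adora2b was still first in WT LPS by that length (110.0 against 97.0 for P2rx4), but in KO LPS P2rx4 (112) was first and Adora2b (98.2) second, with no overlap of libraries.

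**Figure D3:**
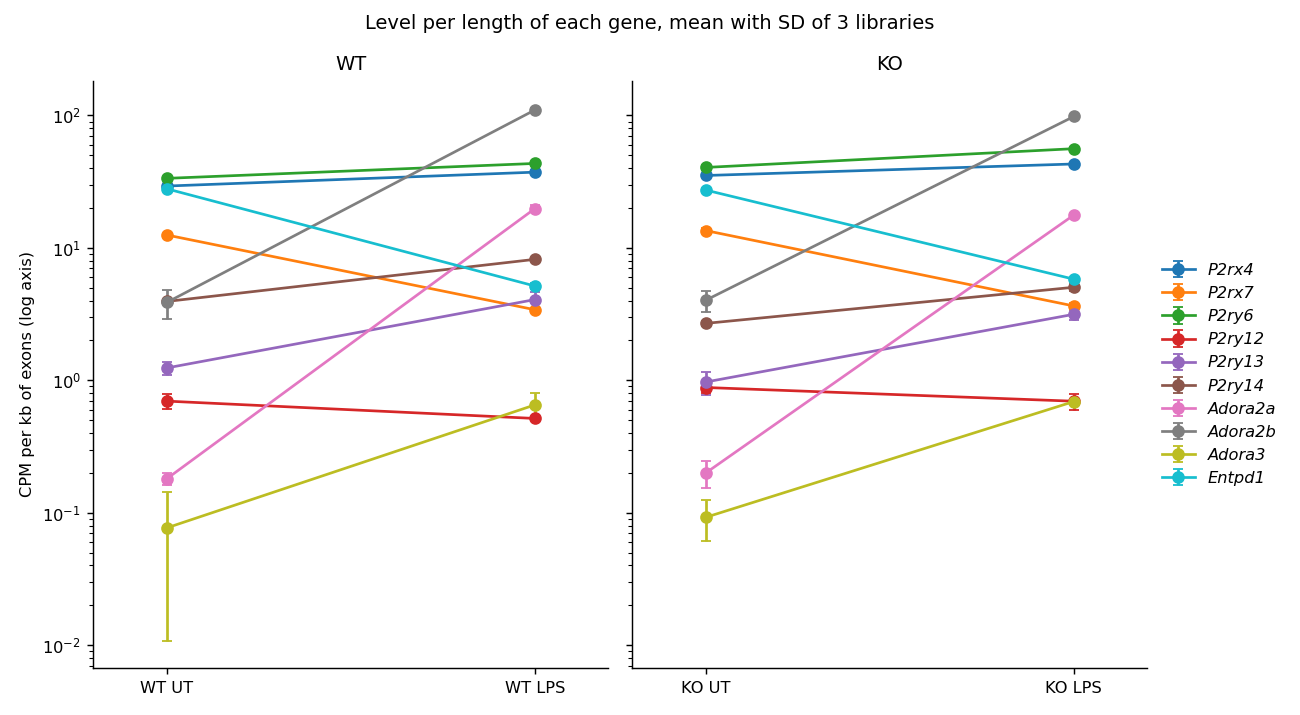
Mean level per kilobase of exons (vertical log axis, CPM per kb) in UT and LPS for WT (left) and KO (right); bars are the SD of 3 libraries. Adora2b climbed from 3.88 to 110.0 in WT and went from sixth to first, whereas Entpd1 dropped from 27.9 to 5.15.

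The second comparison asked what the deletion changed in each treatment; it shares its libraries with the LPS comparisons. P2ry14 was lower in KO, at 29.8 ± 1.45 against 43.6 ± 0.490 CPM (SD, n = 3) in UT and at 55.8 ± 3.74 against 90.5 ± 2.31 CPM (SD, n = 3) after LPS. P2rx4 and P2ry6 were slightly higher in KO in both treatments. These differences passed the adjusted p but not the fold change minimum, so 0 of 10 genes were called in UT (1.82% of all genes) and 0 after LPS (1.25%). At any fold 3 of 10 passed in UT (23.8% of all genes; 2 higher against 14.1% and 1 lower against 9.69%) and the same 3 after LPS (14.3%; 2 higher against 7.78% and 1 lower against 6.54%). An unadjusted p below 0.05 was reached by 4 genes in UT (34.3% of all genes) and 6 after LPS (28.5%), and DESeq2 called 0 in each and passed the same 3 genes at any fold. Over the 10 genes the median change was 0.12 in UT on the log2 scale and 0.09 after LPS, against 0 and -0.01 over all genes.

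P2ry14 had the largest difference, with a log2 fold change of -0.55 (SE 0.0605, edgeR adjusted p 1.18e-06) in UT and -0.70 (SE 0.0595, edgeR adjusted p 8.23e-08) after LPS. Within the batches the log2 ratio was -0.52, -0.65 and -0.48 in UT and -0.80, -0.74 and -0.56 after LPS, although libraries of one batch did not deviate together. The difference after LPS stayed between -0.76 and -0.67 under all alternatives. P2ry6 was at 117 ± 6.05 against 96.7 ± 2.71 CPM (SD, n = 3) in UT (log2 fold change 0.27, SE 0.0549, edgeR adjusted p 0.000739). After LPS it was at 162 ± 5.68 against 125 ± 2.28 CPM (SD, n = 3) (0.37, SE 0.0553, edgeR adjusted p 0.000114). P2rx4 was at 247 ± 2.42 against 206 ± 2.52 CPM (SD, n = 3) in UT (0.26, SE 0.0481, edgeR adjusted p 0.000333). After LPS it was at 302 ± 4.02 against 262 ± 4.84 CPM (SD, n = 3) (0.20, SE 0.0483, edgeR adjusted p 0.00689). For both genes every KO library stood above every WT library in each treatment. With library totals without scaling factors they no longer passed in UT, at 0.11 for P2rx4 (edgeR adjusted p 0.0835) and 0.12 for P2ry6 (edgeR adjusted p 0.0791).

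The other 7 genes did not pass in this fit. After LPS P2ry13 (-0.41, edgeR adjusted p 0.0447) and Adora2a (-0.20, edgeR adjusted p 0.0412) passed when protein-coding genes alone were fitted, P2ry13 passed with the share of small structured RNAs as a covariate (-0.64, edgeR adjusted p 0.0349), and Entpd1 passed without WT LPS replicate 1 (0.21, edgeR adjusted p 0.0245). In UT P2ry13 (-0.50) and Entpd1 (-0.18) passed with library totals without scaling factors. P2ry13, the neighbor of P2ry14, had a log2 fold change of -0.34 (95% interval -0.68 to -0.01, edgeR adjusted p 0.139) in UT and -0.38 (-0.67 to -0.08, edgeR adjusted p 0.0815) after LPS. P2ry12, next in the cluster, had 0.34 (-0.07 to 0.75) and 0.44 (-0.04 to 0.91). The estimates of the 3 clustered genes differed in sign, and the difference between them was not tested. For Adora2a the estimates were 0.14 (-0.31 to 0.58) in UT and -0.16 (-0.30 to -0.02) after LPS, and for Adora2b 0.06 (-0.22 to 0.34) and -0.16 (-0.37 to 0.04). For P2rx7 they were 0.11 (-0.00 to 0.23) and 0.09 (-0.05 to 0.23), and for Entpd1 -0.03 (-0.14 to 0.08) and 0.17 (0.04 to 0.30). Adora3 could not be resolved, with 0.27 (-0.83 to 1.37) and 0.08 (-0.67 to 0.83), and its UT estimate was -0.27 without WT UT replicate 2. KO and WT libraries did not overlap for 5 of 10 genes in UT (40.8% of all genes) and for 8 after LPS (29.1%).

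**Figure D4:**
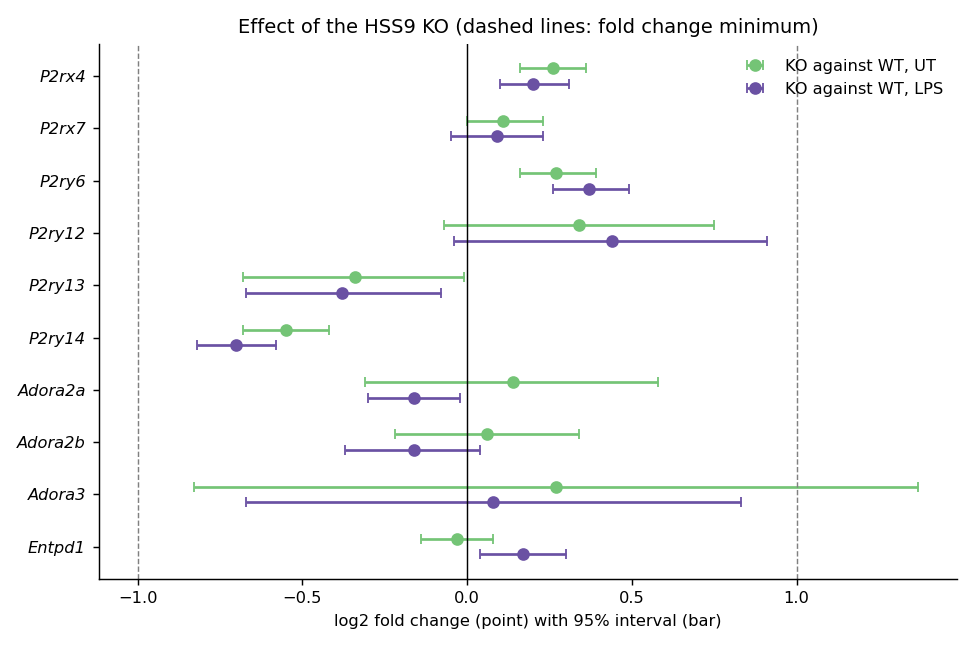
Log2 fold change of KO against WT (horizontal axis) for each gene (vertical axis) in UT and after LPS; points are estimates, bars 95% intervals, and dashed lines the fold change minimum of 1 in either direction. P2ry14 lay below 0 in each treatment, at -0.55 and -0.70, and P2rx4 and P2ry6 lay between 0.20 and 0.37.

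Other features moved with genotype. In UT the small structured RNAs took 6.67% to 8.01% of counts in KO and 3.04% to 3.30% in WT, and with this share as a covariate P2ry14 (-0.42), P2rx4 (0.19) and P2ry6 (0.12) no longer passed the adjusted p in UT (edgeR adjusted p 0.0533, 0.314 and 0.664). After LPS, where the share was 3.26% to 3.45% in KO and 4.07% to 6.93% in WT, the 3 genes still passed. KO and WT libraries did not overlap in this share in either treatment, nor did UT and LPS libraries of either genotype. A loss under the covariate therefore cannot tell the share apart from genotype or treatment. The 8 neutrophil markers summed to 40.9 to 46.7 CPM in KO UT and 18.6 to 19.9 CPM in WT UT, with 4 of the 5 tested called higher, mostly through S100a8 and S100a9. After LPS these sums overlapped (67.2 to 76.7 CPM in KO, 50.4 to 79.4 CPM in WT). Only S100a9 then passed at any fold (0.76, edgeR adjusted p 0.000936). The platelet markers, mostly Pf4, summed in UT to 41.1 to 47.0 against 23.8 to 27.2 CPM, with 4 of 4 passing higher and Gp9 (1.30) called. After LPS the platelet sums overlapped (73.8 to 76.6 against 53.9 to 76.9 CPM), and only Gp9 passed and was called (2.13, edgeR adjusted p 0.0309). Of the stromal markers, 2 of 6 tested were called higher in UT and 4 of 6 after LPS (26.9 to 28.9 against 21.9 to 24.1 CPM). The endothelial list, nearly all Kdr, was lower in KO (23.3 to 26.2 against 34.9 to 38.1 CPM in UT). The macrophage markers, mostly Lyz2, summed in UT to 33459.8 to 34557 CPM in KO and 29041 to 30114 CPM in WT. After LPS they summed to 30297 to 32158 against 27977 to 29519.9 CPM. At any fold 5 of the 9 passed higher and 1 lower in UT, and 6 passed higher and 0 lower after LPS, with Adgre1 at 0.18 and 0.30. B cell, T cell, dendritic and mast cell markers stayed at or below 3.72 CPM in sum. Of those tested only Cd4 passed, higher in KO after LPS (1.00, edgeR adjusted p 0.0453). The part of these features in the genotype differences was not tested.

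Whether LPS acted differently in the 2 genotypes was tested as an interaction. None of the 10 genes was called (0 against 2.16% of all genes) or passed the adjusted p (16.8%), and DESeq2 called 0. Entpd1 was the only one with an unadjusted p below 0.05 (29.1% of all genes), at 0.20 (SE 0.0828, edgeR adjusted p 0.111), a smaller fall in KO. It passed in 4 alternatives, among them DESeq2 (0.28, DESeq2 adjusted p 0.00904) and the fit without WT LPS replicate 1 (0.24, edgeR adjusted p 0.0329). P2ry6, at 0.10, passed with library totals without scaling factors alone (0.25, edgeR adjusted p 0.0178). The interaction of P2ry14 was -0.15 (95% interval -0.33 to 0.03), and that of Adora2a was -0.30 (-0.77 to 0.17), or -0.12 without KO UT replicate 2 and -0.63 with the share of small structured RNAs as a covariate.

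The rest of the pathway was read from lists of 52 further genes, of which 51 were found in the table and 34 could be tested. In WT, LPS gave 8 calls upward and 15 downward, and in KO it gave 7 and 15, with a median log2 fold change of -0.77 and -0.62. The background over all genes was 19.1% upward and 18.7% downward for WT, with 17.7% and 19.3% for KO. Among the other receptors, P2ry2, a receptor for ATP and UTP that lies 21.9 kb from P2ry6, rose in WT from 8.97 ± 0.883 to 49.9 ± 3.88 CPM (SD, n = 3; log2 fold change 2.48, edgeR adjusted p 6.09e-16). P2ry1, a receptor for ADP, fell from 9.56 ± 1.03 to 1.5 ± 0.450 CPM (SD, n = 3) in WT (-2.70, edgeR adjusted p 9.81e-12). P2rx6 was called lower but had 4 to 26 counts in UT and at most 2 after LPS. Adora1, the remaining adenosine receptor gene, was not tested, with at most 6 counts.

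Among the enzymes, Acpp, a phosphatase that can act on AMP, rose (2.12 in WT, 2.74 in KO) and Enpp1, which cuts ATP to AMP, fell (-2.21 and -1.95). Nt5e, the gene of CD73, never exceeded 33 counts and was called lower in WT (-1.65, edgeR adjusted p 0.012) but did not pass in KO (-1.20, edgeR adjusted p 0.0526). The intracellular family members Entpd6 (-1.79 and -1.60) and Entpd5 (-1.49 and -1.25) fell, as Entpd1 did. In adenosine uptake and breakdown 3 of 8 tested genes were called higher in WT and 2 in KO, with 2 lower in each. Slc28a2, a sodium-coupled nucleoside carrier, rose from 36.1 ± 1.5 to 2094 ± 16.6 CPM (SD, n = 3) in WT (5.86, edgeR adjusted p 1.04e-25). Pnp2, a purine nucleoside phosphorylase gene, rose by 5.31 in WT and by 6.46 in KO, and its reads are uncertain because of its near-identical paralog. Ampd3, an AMP deaminase gene, rose (1.10 in WT), and Ada, the adenosine deaminase gene, fell (-1.14 and -1.05), as did the nucleoside carrier gene Slc29a2 (-1.23 and -1.04). Single libraries decided calls of Nt5e, Slc29a2, Ada and P2rx6, and that of Adcy2, from the cAMP list, in KO. Adcy2 was called lower there (-1.07) but was -0.99 without KO LPS replicate 2 and -0.91 without KO LPS replicate 3. Nt5e in WT did not pass without WT LPS replicate 3 (-1.13, edgeR adjusted p 0.0647), Slc29a2 in KO did not pass without KO UT replicate 2 (-0.90) or KO LPS replicate 2 (-0.83), and Ada fell by less than the fold change minimum without WT UT replicate 1 (-0.97 in WT) and without KO UT replicate 3 (-0.91) or KO LPS replicate 2 (-0.96 in KO). P2rx6 in WT did not pass without WT UT replicate 2 (-2.15). Ampd3 in WT was 0.92 with upper-quartile scaling and 0.44 with library totals without scaling factors, below the fold change minimum in both. With the share of small structured RNAs as a covariate Slc29a2 in KO was -0.06 (edgeR adjusted p 0.971), Ada in KO -0.83 (edgeR adjusted p 0.331), P2rx6 in KO -2.58 (edgeR adjusted p 0.457) and Nt5e in WT -0.88 (edgeR adjusted p 0.426). With it Adcy2 in KO was -0.54 (edgeR adjusted p 0.372). Pde4a, also of the cAMP list, went in KO from -1.02 to -0.80 and lost the fold change minimum only.

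Among genes of nucleotide release, 2 of 5 were called higher and 3 lower in each genotype. Gja1, the connexin 43 gene, rose from 0.689 ± 0.373 to 30.3 ± 2.17 CPM (SD, n = 3) in WT (5.47, edgeR adjusted p 1.11e-17), and Calhm6, of the calcium homeostasis modulator channel family, rose from 6.08 ± 0.643 to 243 ± 9.56 CPM (SD, n = 3) (5.32, edgeR adjusted p 7.94e-21). Calhm2 (-2.06), Slc17a9, a vesicular nucleotide transporter (-1.94), and Panx1, a channel that releases ATP (-1.23), fell in WT. In KO the call of Slc17a9 was lost with the share of small structured RNAs as a covariate (-0.51, edgeR adjusted p 0.606). On the cAMP side the phosphodiesterase gene Pde4b rose (1.64 and 1.73, and 0.98 in WT with library totals without scaling factors), whereas the adenylyl cyclase genes Adcy9 (-2.57 and -2.41) and Adcy3 (-2.37 and -2.31) and the phosphodiesterase gene Pde4d (-1.76 and -1.88) fell. In KO against WT, 0 of the 34 genes were called in either treatment. At any fold 3 were higher and 4 lower in UT, and 8 were higher and 2 lower after LPS, with Calhm6 the lowest at -0.73 (edgeR adjusted p 8.13e-06). Of all genes 23.8% passed in UT (14.1% higher, 9.69% lower) and 14.3% after LPS (7.78% higher, 6.54% lower). The 7 in UT became 4 without WT UT replicate 2 or KO UT replicate 1 and 11 with library totals without scaling factors or in the fit of the compared groups only, and the 10 after LPS became 6 without KO LPS replicate 1. With the share of small structured RNAs as a covariate, 2 passed in UT and 4 after LPS.

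**Figure D5:**
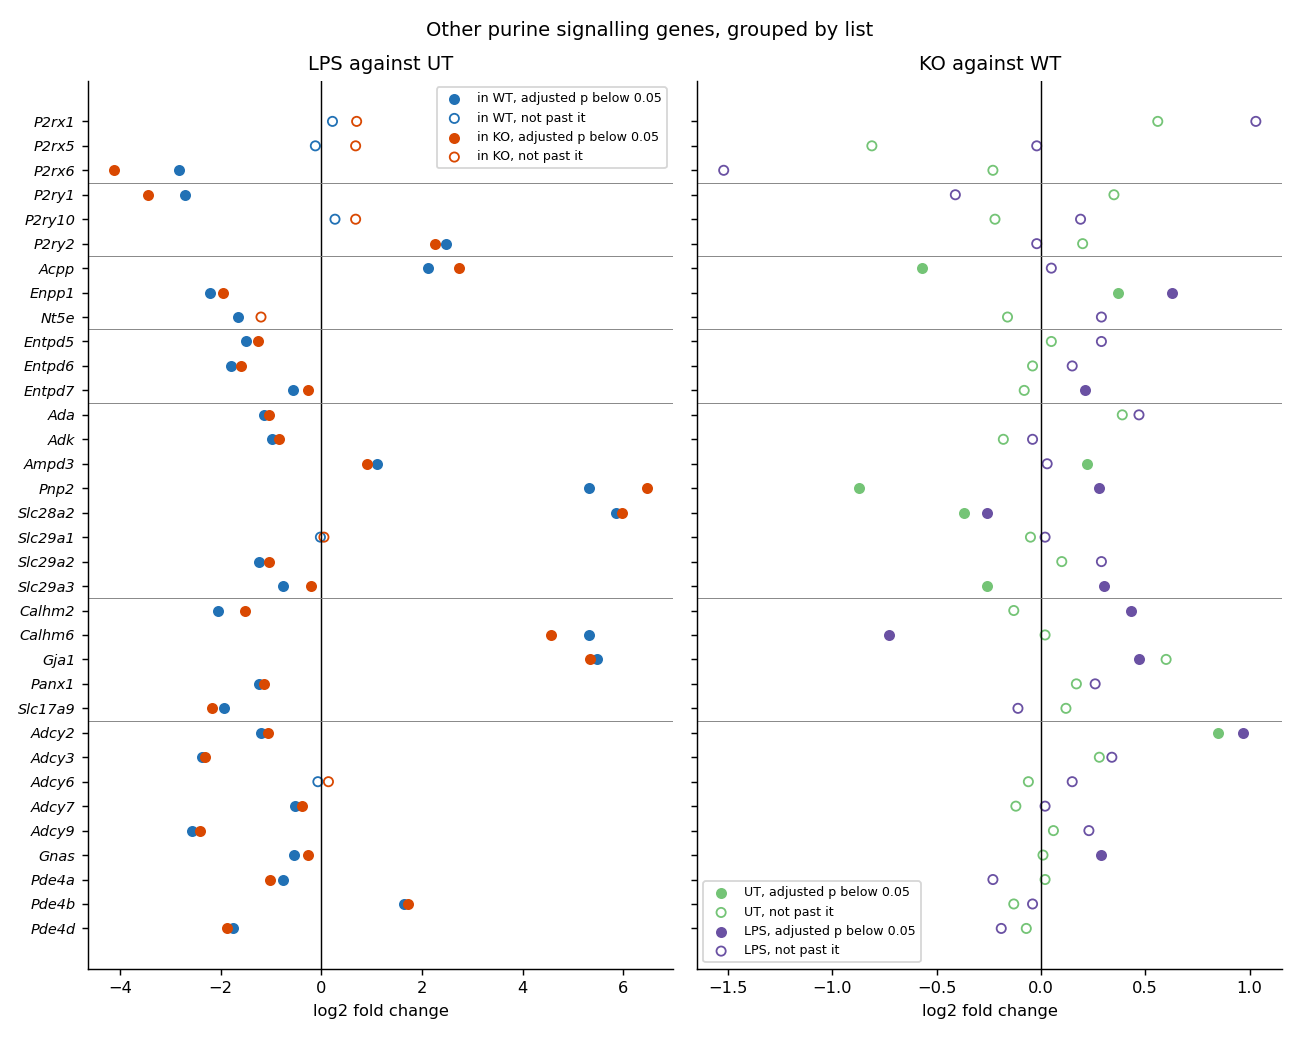
Log2 fold change of the 34 tested pathway genes (vertical axis, lists separated by lines) for LPS against UT (left) and KO against WT (right); filled points had an adjusted p below 0.05 and open points did not. Slc28a2, Pnp2, Gja1 and Calhm6 lay above 4 with LPS in each genotype, while all KO differences other than those of P2rx6 and P2rx1 lay within 1 of 0.

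The genes with the most similar pattern were found by Pearson r of log2 CPM over the 12 libraries, among 9581 genes with a mean of at least 5 CPM. These values are descriptive, since the libraries are 4 groups of 3 and not independent points. For P2ry14 they were G530011O06Rik (r = 0.991), Plaur (0.981) and Slc6a12 (0.979), and 4.76% of genes exceeded 0.9. For Adora2a they were Slc39a14, Tnip3 and St7 (each 0.999), and for Adora2b Slc25a25 (0.999), Dgkh (0.998) and Nfkbia (0.998), but 30.8% and 30.4% of genes exceeded 0.9 there. Adora3 was near Maff (0.973) and Ifit1bl2 (0.959), with 11.1% of genes above 0.9. For Entpd1 they were Idh1, Mtss1 and Rassf3 (each 0.999), and for P2rx7 Bbs9 (0.999), Vsir (0.998) and Otulinl (0.998), with 24.6% and 24.4% of genes above 0.9. P2rx4 was nearest to Clec12a (0.988), Fcgr3 (0.985) and Ptpmt1 (0.982), and P2ry6 to Was (0.973), Tmem176a (0.972) and Fcgr3 (0.972), so Fcgr3 was near both. P2ry13 was nearest to Acvr1 (0.992), 9930111J21Rik1 (0.991) and Zhx2 (0.991), with 27.4% of genes above 0.9. P2ry12 had the fewest like it, 0.104% of genes above 0.9, with Cmtm3 (0.950), Dnal4 (0.943) and Rnf181 (0.925) the nearest.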

How the data were processed

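Total RNA libraries from BMDMs were made by the authors with a stranded kit that removes ribosomal and globin RNA. Per the labels and the study's methods, reads were checked with FastQC 0.11.9, aligned to GRCm38 with HISAT2 2.1.0, handled with SAMtools 1.17 and counted per gene with featureCounts 2.0.0. The deposited values are raw counts per gene. The annotation release, strand setting and handling of multi-mapping reads are not given in the sources used here, so overlapping genes and paralogs are named as uncertain. Identifiers were matched without version to GENCODE (GRCm38), which placed 48144 of 48526, and the other 382 held 0.122% of counts. The members and gene lists were chosen with earlier results of these data known.

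All 12 libraries entered one edgeR 4.0.16 quasi-likelihood fit of the 4 group means (limma 3.58.1, R 4.3.3), with TMM scaling and filterByExpr (minimum count 10, minimum total 15), which kept 15523 genes with 99.96% of counts. Adjusted p-values are Benjamini-Hochberg over all of these. Intervals are 95% and cover the spread between libraries. The script was tested on simulated counts with known changes. Of the pathway lists, the text names genes called in any comparison, up to 3 per list and direction with the largest change. Gnas, Entpd7 and Slc29a3 fall outside that rule and are named for their interaction after their values were seen. Adcy2 and Pde4a also fall outside it and are named because alternatives changed their calls. The gene Pnp was not matched. One gene with a pattern like a member's is not reported here. TMM factors were 1.15 to 1.29 in UT and 0.811 to 0.822 in LPS libraries, so library composition differed with treatment.

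Libraries with the same batch number did not deviate together: over 18 pairs r ranged from -0.0631 to 0.0373, with 0 above 0.1. Replicates differed by more than counting noise (chi-square per degree of freedom at least 3.73), so none was merged. Alternatives were DESeq2 1.42.0, RLE and upper-quartile scaling, other filters on low counts, no fold change minimum, protein-coding genes alone, a replicate block, the share of small structured RNAs as a covariate, compared groups only and leaving out each library. Library totals without scaling factors and the transcript length were added after seeing the data. Figures used matplotlib 3.10.9 in Python 3.11.15.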

Additional observations from a re-analysis of the deposited data

Results flagged for a closer look

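The LPS response of 7 of the 34 tested pathway genes differed between the genotypes by the interaction test at any fold (edgeR adjusted p below 0.05), against 16.8% of all genes. Pnp2 rose more in KO, by 1.15 (edgeR adjusted p 0.000898), and was the one past the fold change minimum. Its counts were 110, 78 and 68 in WT UT and 40, 27 and 45 in KO UT, and 1976, 1779 and 1559 in WT LPS and 2348, 2607 and 2374 in KO LPS. Calhm6 rose less in KO, with an interaction of -0.75 (edgeR adjusted p 0.00129), at 243 ± 9.56 CPM in WT LPS and 147 ± 11.6 CPM (SD, n = 3) in KO LPS. Acpp rose more in KO, by 0.63 (edgeR adjusted p 0.00045), from a lower UT level of 6.38 ± 0.682 against 9.52 ± 0.163 CPM (SD, n = 3). Genes that fell less in KO were Slc29a3 (0.56), Calhm2 (0.55), Entpd7 (0.29) and Gnas (0.28). With the share of small structured RNAs as a covariate 0 interactions passed the edgeR adjusted p (5 at an unadjusted p below 0.05). The estimates were then 1.18 for Pnp2 (edgeR adjusted p 0.078), -0.90 for Calhm6, 0.92 for Calhm2 and 0.42 for Acpp. Those of Slc29a3, Entpd7 and Gnas were 0.43, 0.28 and -0.21. KO and WT libraries did not overlap in this share in either treatment, so this fit cannot separate it well from genotype. Gnas also did not pass in 8 of the 12 fits without 1 library (0.23 to 0.29), that is, in all except those without KO UT replicate 3, WT LPS replicate 1 and KO LPS replicates 1 and 2, nor with the replicate block (0.28, edgeR adjusted p 0.0556). The part of the markers of other cells in these differences was not tested.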

How the results depend on the processing

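Under every alternative the number of genes called stayed at 6 or 7 of 10 for LPS in WT and at 6 in KO, apart from dropping the fold change minimum (9 in each), which also raised the KO comparisons from 0 to 3 in UT and from 0 to 3 after LPS; the interaction stayed at 0. Leaving out each library in turn gave 7 in WT, 6 in KO and 0 elsewhere. Same-numbered libraries share a labelled batch but did not deviate together, and the replicate block changed no call of the 10 genes (7, 6, 0, 0 and 0), with P2ry14 at -0.70 after LPS; among pathway genes it took Pnp2 after LPS (0.28) and the interaction of Gnas (0.28) above the adjusted p of 0.05. Of 850 alternative values for single genes, 804 kept direction and call, 43 changed sign, 2 lost and 1 gained the call, and 21 of the 850 crossed the adjusted p of 0.05. Library totals without scaling factors, added after seeing the data, moved the median of all genes by -0.66 (LPS in WT), -0.51 (LPS in KO), -0.15 (KO in UT) and 0.16 (interaction). Signs changed there for LPS in P2rx4 (-0.32, -0.22) and P2ry6 (-0.29, -0.04), for KO in UT in P2rx7 (-0.04), Adora2a (-0.01) and Adora2b (-0.09), and for the interaction in P2rx4 (0.10), P2rx7 (0.14), P2ry13 (0.12) and P2ry14 (0.01). Upper-quartile scaling moved the median of all genes by -0.18 for LPS, and P2ry14 was then no longer called in WT (0.87). RLE scaling and DESeq2 each gave Adora2b in UT -0.02 and interactions of 0.02 (P2rx4), 0.06 (P2rx7) and 0.05 (P2ry13), and without a filter the interaction of P2rx7 was 0.01. The small RNA covariate gave, for KO in UT, P2ry13 0.23, Adora2b -0.12 and Entpd1 0.21, after LPS Adora3 -0.03, and as interactions P2rx4 0.04, Adora2b 0.04 and Entpd1 -0.15. Leaving out 1 library turned the KO difference in UT of Adora3 (-0.27 to 1.01), Adora2b (-0.11 to 0.25) and Adora2a (-0.04 to 0.26), after LPS of Adora3 (-0.09 to 0.18), and the interactions of Adora3 (-0.93 to 0.35), P2ry13 (-0.17 to 0.12), P2ry12 (-0.01 to 0.20) and P2rx7 (-0.05 to 0.02). None of these sign changes passed the adjusted p except P2rx4 in both genotypes and P2ry6 in WT with library totals. Of 1132 alternative values for the pathway genes, added after seeing the data, counting the call for LPS and the adjusted p elsewhere, 1046 kept direction and side, 73 lost the adjusted p, 12 lost only the fold change minimum and 1 changed sign (interaction of Gnas with the small RNA covariate, -0.21). The cause was not tested. RLE scaling kept the order of levels per kilobase in all 4 groups. Counts under 30 limit Adora3 in UT and Adora2a in UT.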
